A study of Mus musculus with 10 samples.

Results

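Notch signalling passes between neighbouring cells, and 10 genes of the pathway are described here in sorted cells of the adult mouse prostate. They are the ligands Dll1, Jag1 and Jag2, the receptors Notch1, Notch2 and Notch3, and the target genes Hes1, Hey1, Heyl and Nrarp. They were chosen by name from the 24514 genes in the table, and all 10 were found in it by their position in the mouse genome. The cells came from dissociated prostates of C57BL/6 mice aged 8 to 12 weeks and were sorted by flow cytometry after lineage-marked cells (Lin+) were gated out. Basal cells were CD24 low and CD49f high (2 libraries). Luminal cells were CD24 high and CD49f low, and were split into Sca-1- (3 libraries) and Sca-1+ (3 libraries). Stromal cells were negative for CD24 and CD49f (2 libraries). The labels name no transgene and no treatment. The same protocol text, attached to all 10 libraries, also describes a culture of dissociated cells on collagen in medium with DHT, an androgen. It does not say whether any sorted library came from cultured cells. The labels also do not say whether the libraries of a gate came from separate animals. The p-values below therefore set differences between gates only against the spread among these libraries, pooled over all gates.

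A ligand on the surface of one cell binds a Notch receptor on the next. The receptor is then cut, first by an ADAM protease and then by gamma-secretase, and its intracellular part enters the nucleus, where it joins the DNA-binding protein Rbpj and a Mastermind coactivator to switch on genes such as Hes1. In the prostate, basal cells lie against the basement membrane and luminal cells line the duct, so that both layers can exchange Notch signals with each other, and the surrounding stroma holds fibroblasts, smooth muscle and vessels. Nrarp and the Hes and Hey proteins are widely used as readouts of the pathway, although Hes1 also answers to other signals. Ligand and receptor mRNA does not measure signalling, since receptor activity depends on cleavage.

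RNA levels are given as FPKM (fragments per kilobase per mega mapped fragments), a scale on which genes can be compared because transcript length is taken out. Depth was 20.4 to 27.3 M (mega) mapped fragments in each library, as read from the step between neighbouring low values. Libraries of a gate correlated at 0.976 (basal), 0.936 to 0.971 (Sca-1- luminal), 0.84 to 0.951 (Sca-1+ luminal) and 0.964 (stromal) on log2(FPKM + 1) over all genes tested. Summed over 5 basal genes such as Krt5 and Krt14, the basal libraries stood at 2659 and 2711 FPKM and the other 8 at 10.0 to 207.6 FPKM. Summed over 6 luminal secretory genes such as Pbsn, the Sca-1- luminal libraries stood at 26520 to 44660 FPKM, the Sca-1+ luminal libraries at 4338 to 8712 FPKM, and the other 4 at 553.6 to 4385 FPKM. The basal and Sca-1- luminal gates thus carried their defining markers. The Sca-1+ luminal libraries reached down to the basal level of the secretory genes and stood apart from one another. Summed over 5 proximal luminal genes such as Psca, Sca-1+ luminal replicates 1, 2 and 3 held 1457, 3198 and 7136 FPKM, against 1304 and 1989 FPKM in the stromal libraries. Summed over 6 fibroblast genes (Col1a1, Col1a2, Col3a1, Dcn, Lum and Pdgfra), Sca-1+ luminal replicates 1, 2 and 3 held 4736, 2320 and 328.2 FPKM, against 4992 and 6780 FPKM in the stromal libraries, 492.5 and 681.9 FPKM in the basal libraries and 75.3 to 132.4 FPKM in the luminal Sca-1- libraries. Dcn held 655.2 and 458.6 FPKM of the sums in basal replicates 1 and 2. Col1a1, Col1a2, Col3a1, Lum and Pdgfra were each higher in Sca-1+ luminal replicate 3 than in both basal libraries, with Col1a1 at 22.4 against 7.17 and 8.77 FPKM. Because the Sca-1+ luminal libraries stood apart, comparisons with them were also run without replicate 3 and with replicate 3 as the sole library of its gate. In the second case it is taken to vary like the other groups. The values are given where they bear most on a result. In sorted bulk RNA, fewer cells of a type and less RNA per cell cannot be told apart.

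The promoter sequences of 4 members are shown because their levels carry the main contrasts below: Dll1 and Jag1, which were highest in basal cells, Notch2, which was lowest in Sca-1- luminal cells, and the target Nrarp, for which no difference was called. Sequences are from RefSeq on GRCm38.p6 (the assembly of mm10), written 5′ to 3′ on the gene's strand, and end where the gene's own annotated exons begin. Capitals mark a Hes N box, the letters CACNAG on either strand, to which Hes proteins can bind. The Dll1 stretch is chr17:15375977-15376073 (minus strand) and lies in an intron of another GENCODE transcript of Dll1 and within an exon of the antisense noncoding gene A930024N18Rik. The Jag1 stretch is chr2:137116645-137116770 (minus strand), Notch2 is chr3:98013288-98013526 (plus strand) and Nrarp is chr2:25180508-25180757 (plus strand).
Dll1: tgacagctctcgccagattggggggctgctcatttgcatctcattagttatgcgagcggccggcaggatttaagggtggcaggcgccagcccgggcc
Jag1: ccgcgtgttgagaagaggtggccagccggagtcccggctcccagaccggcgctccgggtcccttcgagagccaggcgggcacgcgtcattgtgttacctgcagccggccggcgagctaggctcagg
Notch2: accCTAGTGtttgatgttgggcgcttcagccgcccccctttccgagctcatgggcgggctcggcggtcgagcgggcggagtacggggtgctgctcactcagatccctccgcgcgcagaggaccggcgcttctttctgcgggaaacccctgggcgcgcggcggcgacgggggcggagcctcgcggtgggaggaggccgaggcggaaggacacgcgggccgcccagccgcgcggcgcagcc
Nrarp: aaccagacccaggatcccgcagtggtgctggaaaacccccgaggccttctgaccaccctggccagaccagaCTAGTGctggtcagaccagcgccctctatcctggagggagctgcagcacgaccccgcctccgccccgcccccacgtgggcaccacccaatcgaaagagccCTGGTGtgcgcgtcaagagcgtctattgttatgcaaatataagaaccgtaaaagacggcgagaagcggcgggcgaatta

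RefSeq promoters were matched for 7 of the 10 members, and Hes1, Hey1 and Heyl were not matched. In the 250 bases before the start, Notch1 and Notch2 each held 1 N box, Notch3 and Nrarp each held 2, and Dll1, Jag1 and Jag2 held 0. An N box was present in 36.7% of the 32851 mouse promoter windows of that length in the table. The core letters bound by Rbpj, TGGGAA on either strand, were found in 0 of the 7 matched members, against 21.6% of all windows. The motifs do not overlap each other. A match is a description of the letters in the window, and no match says only that these letters are not there. The Jag2 window had the highest GC content of the 7, at 87.2%, and lies within its annotated first exon, so it is not printed.

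All 3 ligand RNAs were most abundant in basal cells, at 17.9 to 53.4 FPKM, and in the Sca-1- luminal cells all 3 lay at a few FPKM or less. The receptors divided the same cells differently. Notch1 was highest in basal cells, while Notch2 was high in basal, Sca-1+ luminal and stromal cells and low in Sca-1- luminal cells. Hes1 was the most abundant target in every library, at 45.6 to 135 FPKM, and its levels did not follow those of the ligands. Heyl was present mainly in the stromal libraries and in 2 of the 3 Sca-1+ luminal libraries. The plot of all 10 genes by library shows these patterns.

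**Figure D1:**
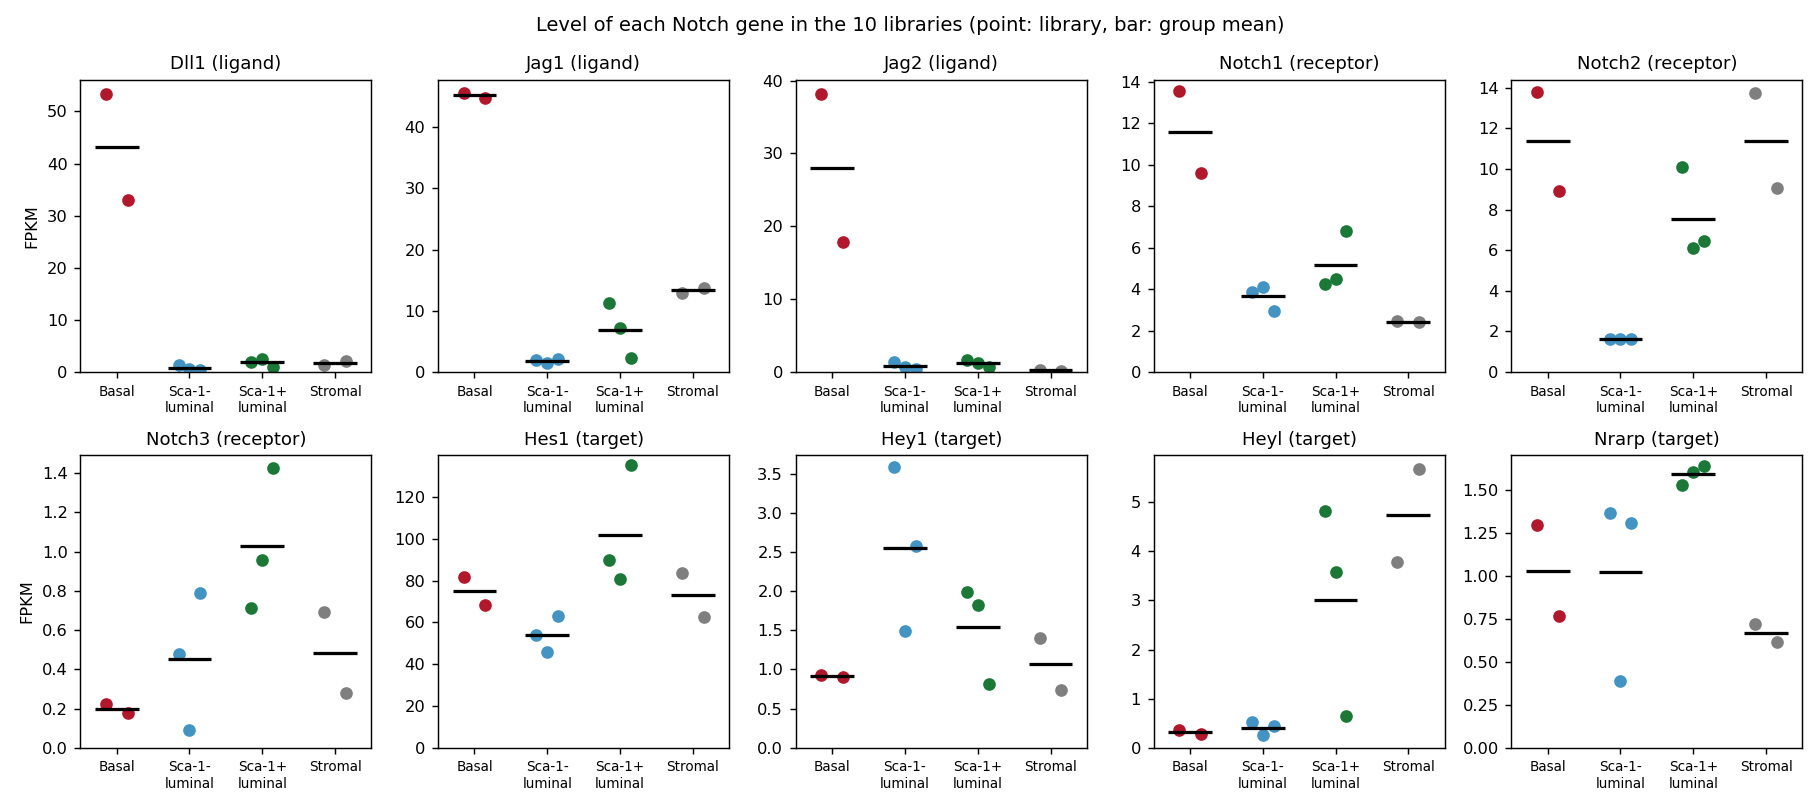
FPKM (y axis, linear, from 0, with its own range in each panel) of the 10 Notch genes in 10 libraries, grouped by sorting gate on the x axis. Points are libraries and bars are group means. The 2 basal points lie above all others for Dll1, Jag1, Jag2 and Notch1, and the 3 Sca-1- luminal points lie below all others for Notch2.

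Differences between gates were tested with limma on log2(FPKM + 1), with Benjamini-Hochberg adjustment over the 12461 genes that reached 1 FPKM in 2 or more libraries, and a gene was called at an adjusted p under 0.05. Of the 10 genes, 9 were tested and Notch3 fell below that filter. Heyl passed the filter only through libraries of the gates in which it was high, so the counts below describe these genes and support nothing on their own. Between basal and Sca-1- luminal cells 5 of 9 were called, all higher in basal cells, where 46.2% of all genes tested were called and 20.2% were called higher. Between basal and Sca-1+ luminal cells 4 of 9 were called, all higher in basal cells, against 19.9% of all genes called and 4.40% called higher. Between stromal and basal cells 5 of 9 were called, 4 lower and 1 higher in stromal cells, against 22.6% of all genes called, 9.12% lower and 13.5% higher. Between Sca-1+ and Sca-1- luminal cells 4 of 9 were called, all higher in Sca-1+ cells, against 35.2% of all genes called and 21.8% called higher. Between stromal and Sca-1- luminal cells 3 of 9 were called, all higher in stromal cells, a lower share than the 52.7% of all genes called (25.2% called higher). Between stromal and Sca-1+ luminal cells limma called 0 of 9, where 13.5% of all genes were called. An unadjusted p under 0.05 was found for 4 of the 9 and for 3831 of the 12461 genes tested. The split of calls over all genes moved with scaling in the comparisons with Sca-1+ luminal cells. Of the genes called, the share higher was 62.0% for Sca-1+ minus Sca-1- luminal (40.4% with quantile normalization and 46.0% with median-of-ratios scaling), 22.1% for basal minus Sca-1+ luminal (53.1% and 45.9%) and 13.3% for stromal minus Sca-1+ luminal (37.8% and 32.9%).

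The median difference of the 9 genes stood beside that of all genes at 1.43 against -0.05 for basal minus Sca-1- luminal, 0.53 against -0.29 for basal minus Sca-1+ luminal and -0.27 against 0.02 for stromal minus basal. It was 0.63 against 0.19 for Sca-1+ minus Sca-1- luminal, 0.42 against -0.06 for stromal minus Sca-1- luminal and -0.28 against -0.16 for stromal minus Sca-1+ luminal. The comparisons share libraries, so their counts and medians are not independent of each other. All differences are in log2(FPKM + 1), a scale that understates the change of genes at low FPKM.

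**Figure D2:**
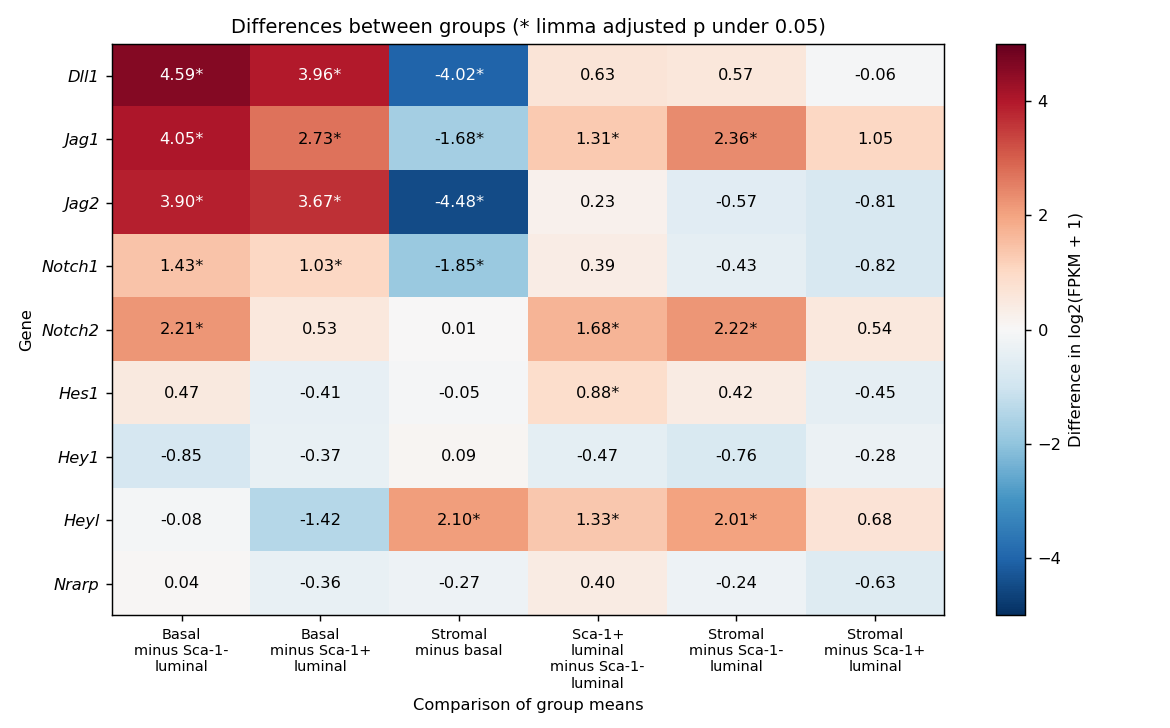
Difference between group means in log2(FPKM + 1) (color scale) for the 9 tested Notch genes (rows) in the 6 comparisons of gates (columns). Asterisks mark a limma adjusted p under 0.05, and the largest values of either sign are 4.59 for Dll1 in basal minus Sca-1- luminal and -4.48 for Jag2 in stromal minus basal.

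Dll1 encodes a Delta-type ligand and lies on chromosome 17 at 15367354 to 15376872 (mm10, minus strand). Its level was 53.4 and 33.0 FPKM in the basal libraries, 1.38, 0.651 and 0.455 FPKM in the luminal Sca-1- libraries, 2.0, 2.54 and 0.99 FPKM in the luminal Sca-1+ libraries, and 1.26 and 2.11 FPKM in the stromal libraries. Both basal libraries were far above all other libraries, which overlapped among themselves. The basal mean of 43.2 ± 14.5 FPKM (SD, n = 2) was higher than in Sca-1- luminal cells by 4.59 (SE 0.352, limma adjusted p = 2.34e-05), than in Sca-1+ luminal cells by 3.96 (adjusted p = 0.000284), and the stromal level fell by 4.02 from the basal one (adjusted p = 0.00033). Neighbours below the basal level in the order of means, Sca-1+ luminal, stromal and Sca-1- luminal, were not called apart (adjusted p = 0.929 and 0.197). Without Sca-1+ luminal replicate 3, Dll1 was called higher in Sca-1+ luminal cells than in Sca-1- ones by 0.87 (adjusted p = 0.0469), and with all 3 libraries the difference was 0.63 (95% interval -0.07 to 1.33, adjusted p = 0.141). An antisense noncoding gene, A930024N18Rik, overlaps Dll1, and the sources do not state whether the reads kept their strand.

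Jag2, a Jagged-type ligand on chromosome 12 at 112907819 to 112929776 (minus strand), had a pattern close to that of Dll1. Its level was 38.2 and 17.9 FPKM in the basal libraries, 1.37, 0.753 and 0.449 FPKM in the luminal Sca-1- libraries, 1.61, 1.26 and 0.661 FPKM in the luminal Sca-1+ libraries, and 0.253 and 0.195 FPKM in the stromal libraries. Every basal library was above every other library, and both stromal libraries, which rest on an estimated 24 and 17 fragments, were below all others. Basal cells (28.1 ± 14.4 FPKM, SD, n = 2) exceeded Sca-1- luminal cells by 3.90 (SE 0.356, limma adjusted p = 4.68e-05) and Sca-1+ luminal cells by 3.67 (adjusted p = 0.000413), and stromal cells fell by 4.48 from basal cells (adjusted p = 0.000197). The low stromal level was not called against either luminal gate (adjusted p = 0.201 and 0.159). With a pseudocount of 0.1 FPKM in place of 1 FPKM it was called lower against both, with differences of -1.45 for Sca-1- luminal (adjusted p = 0.0484) and -1.91 for Sca-1+ luminal (adjusted p = 0.047).

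Jag1, the other Jagged-type ligand (chromosome 2, 137081456 to 137116644, minus strand), differed from Dll1 and Jag2 in the stroma. It stood at 45.5 and 44.8 FPKM in the basal libraries, 1.95, 1.40 and 2.09 FPKM in the luminal Sca-1- libraries, 11.3, 7.27 and 2.29 FPKM in the luminal Sca-1+ libraries, and 12.99 and 13.8 FPKM in the stromal libraries. The order of the means was basal, stromal, Sca-1+ luminal and Sca-1- luminal, and no library of one gate overlapped another gate. Basal cells (45.2 ± 0.496 FPKM, SD, n = 2) were higher than Sca-1- luminal cells by 4.05 (SE 0.454, limma adjusted p = 0.000132) and than Sca-1+ luminal cells by 2.73 (adjusted p = 0.00385). Stromal cells were higher than Sca-1- luminal cells by 2.36 (adjusted p = 0.00219) and fell by 1.68 from basal cells (adjusted p = 0.0367). The last call was lost in 10 of 18 alternatives, among them leaving out either basal or either stromal library (adjusted p = 0.129 to 0.146), any Sca-1- luminal library (0.0518 to 0.0585) or Sca-1+ luminal replicate 2 (0.0523), while the difference stayed between -1.75 and -1.64.

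Among the Sca-1+ luminal libraries, Jag1 was highest in replicate 1 and lowest in replicate 3, the same order as the fibroblast gene sums of 4736, 2320 and 328.2 FPKM. The difference from Sca-1- luminal cells was 1.31 with all libraries (SE 0.406, limma adjusted p = 0.0328). It was 1.85 without replicate 3 (adjusted p = 0.000313) and 0.24 with replicate 3 as the sole library (adjusted p = 0.605), where the call ended. The call was also lost without either basal library, any Sca-1- luminal library or Sca-1+ luminal replicate 1 or 2 (adjusted p = 0.0507 to 0.1). Quantile normalization ended the call as well, at 1.08 (adjusted p = 0.0501). The part of fibroblast RNA in the Jag1 level was not tested. The call of Jag1 as higher in basal than in Sca-1+ luminal cells held in both settings, at 2.20 (adjusted p = 0.000351) and 3.81 (adjusted p = 0.00035). Stromal minus Sca-1+ luminal for Jag1 was 1.05 with all libraries (adjusted p = 0.151), 1.46 without replicate 1 (adjusted p = 0.0269) and 2.13 with replicate 3 as the sole library (adjusted p = 0.00103).

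**Figure D3:**
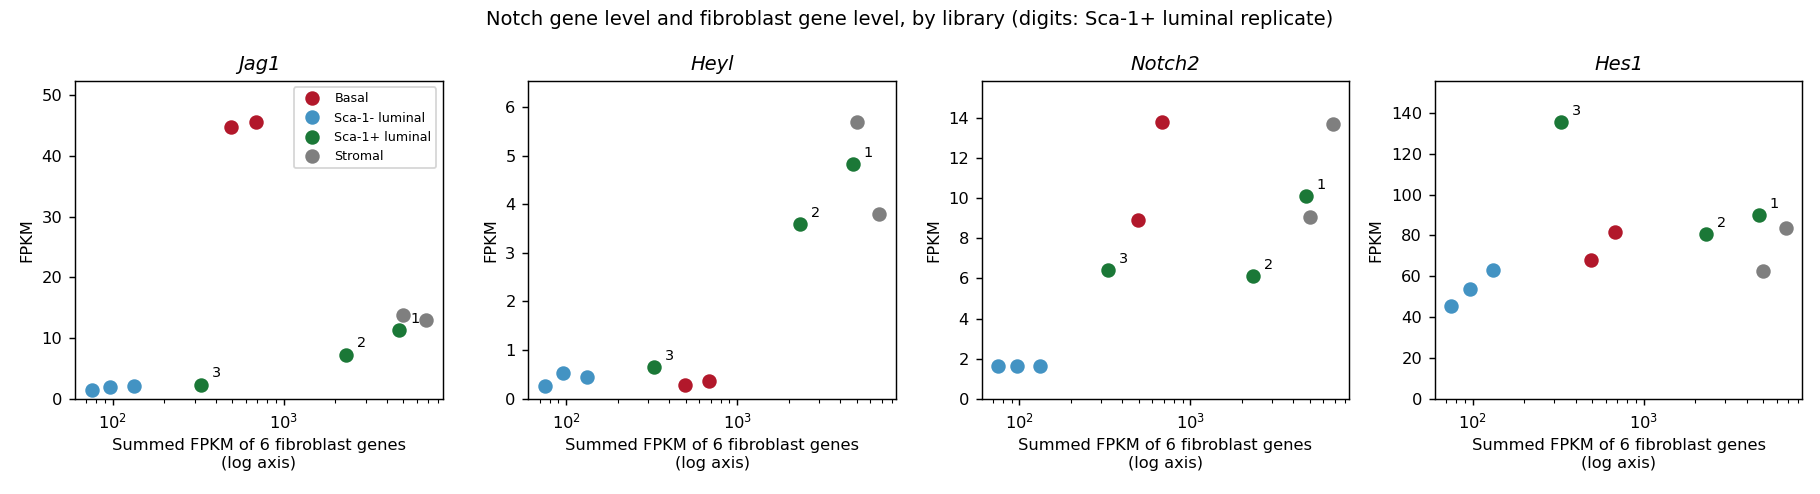
FPKM of Jag1, Heyl, Notch2 and Hes1 (y axes, linear) against the summed FPKM of 6 fibroblast genes (x axes, log) in the 10 libraries, colored by gate, with digits for the Sca-1+ luminal replicate. Replicate 3, at 328.2 FPKM of fibroblast genes, is next to the Sca-1- luminal libraries for Jag1 and Heyl, with the other Sca-1+ libraries for Notch2, and above all libraries for Hes1.

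Summed over the 3 ligands, the basal libraries held 137.2 and 95.7 FPKM. The sums were 4.69, 2.81 and 2.99 FPKM in Sca-1- luminal, 14.9, 11.1 and 3.95 FPKM in Sca-1+ luminal and 14.5 and 16.1 FPKM in stromal libraries. The makeup of the sum differed as well. In the basal libraries Dll1 made up 38.9% and 34.4%, Jag1 33.2% and 46.9% and Jag2 27.9% and 18.7% of it, so that all 3 ligands were well represented. In the stromal libraries Jag1 alone made up 89.6% and 85.7%. These shares compare genes on a per-length scale within a library and carry no test.

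Notch1 and Notch2 encode receptors of the same build that bind both Delta-type and Jagged-type ligands, and their levels across the gates were not alike. Notch1 (chromosome 2, 26457903 to 26516663, minus strand) stood at 13.6 and 9.61 FPKM in the basal libraries, 3.88, 4.11 and 2.96 FPKM in the luminal Sca-1- libraries, 4.24, 4.47 and 6.79 FPKM in the luminal Sca-1+ libraries, and 2.48 and 2.40 FPKM in the stromal libraries. The 4 gates did not overlap, with basal libraries at the top and stromal libraries at the bottom. Basal cells (11.6 ± 2.79 FPKM, SD, n = 2) were higher than Sca-1- luminal cells by 1.43 (SE 0.268, limma adjusted p = 0.00208), and stromal cells fell by 1.85 from basal cells (adjusted p = 0.0027). Basal cells were also called higher than Sca-1+ luminal cells, by 1.03 (adjusted p = 0.0246). That call was lost without Sca-1+ luminal replicate 1 or 2 or without either basal library (adjusted p = 0.0567 to 0.193), and with replicate 3 as the sole library it was 0.67 (adjusted p = 0.216). The other neighbours in the order, Sca-1+ luminal, Sca-1- luminal and stromal, were not called apart (adjusted p = 0.219 and 0.204). Stromal minus Sca-1+ luminal was -0.82 (adjusted p = 0.0729), and it passed the threshold without Sca-1+ luminal replicate 1, at -0.92 (adjusted p = 0.0479).

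Notch2 (chromosome 3, 98013527 to 98150361, plus strand) stood at 13.8 and 8.93 FPKM in the basal libraries, 1.62, 1.61 and 1.63 FPKM in the luminal Sca-1- libraries, 10.1, 6.10 and 6.43 FPKM in the luminal Sca-1+ libraries, and 13.7 and 9.08 FPKM in the stromal libraries. The 3 Sca-1- luminal libraries were below all others, while the other 3 gates overlapped. In Sca-1- luminal replicate 3 a single transcript held 56.7% of the value, at 0.926 FPKM, and in the other 9 libraries it held all of it. The small spread of the Sca-1- luminal gate depends on that sum. An estimated 248 fragments stood behind replicate 3, against 415 and 394 behind replicates 1 and 2. Against Sca-1- luminal cells (1.62 ± 0.014 FPKM, SD, n = 3), Notch2 was higher in Sca-1+ luminal cells by 1.68 (SE 0.263, limma adjusted p = 0.00202), in basal cells by 2.21 (adjusted p = 0.000329) and in stromal cells by 2.22 (adjusted p = 0.000349). These 3 calls held in every alternative run. In the Sca-1+ luminal gate, replicate 3 with the least fibroblast RNA had 6.43 FPKM of Notch2, between replicates 1 and 2, and as the sole library it gave a difference of 1.50 (adjusted p = 0.0226), against 1.76 without it (adjusted p = 0.00126). The stromal and basal means of 11.4 ± 3.29 and 11.4 ± 3.43 FPKM (SD, n = 2 each) were not called apart, and the 95% interval of the difference ran from -0.72 to 0.73.

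Notch3, the receptor best known from vessel walls and mural cells (chromosome 17, 32120820 to 32166852, minus strand), was at low levels. It was listed at 0.222 and 0.177 FPKM in the basal libraries, 0.476, 0.0925 and 0.789 FPKM in the luminal Sca-1- libraries, 0.711, 0.957 and 1.42 FPKM in the luminal Sca-1+ libraries, and 0.693 and 0.278 FPKM in the stromal libraries. Only Sca-1+ luminal replicate 3 passed 1 FPKM, so the gene was below the filter and was not tested. These values rest on an estimated 17 to 273 fragments per library. The Sca-1+ luminal libraries overlapped the Sca-1- luminal ones, and both basal libraries were below the stromal ones. The antisense gene Gm17276 overlaps Notch3, and without strand information their reads cannot be told apart. Smooth muscle and pericyte genes (7 genes, none listed at 0) summed to 99.0 and 205.2 FPKM in basal, 51.0 to 79.0 FPKM in Sca-1- luminal, 255.4, 364.5 and 25.1 FPKM in Sca-1+ luminal, and 163.7 and 305.2 FPKM in stromal libraries. The lowest sum was in Sca-1+ luminal replicate 3, the library with the most Notch3. The part of these cell types in the Notch3 level was not tested. The pericyte gene Rgs5 was at most 2.28 FPKM in any library, while Sca-1+ luminal replicates 1, 2 and 3 held 15.5, 11.7 and 1.56 FPKM of Cspg4 and the stromal libraries 18.6 and 21.7 FPKM.

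Set side by side within each library, the ratio of Notch1 to Notch2 was 0.983 and 1.08 in basal, 2.40, 2.56 and 1.81 in Sca-1- luminal, 0.420, 0.732 and 1.06 in Sca-1+ luminal, and 0.181 and 0.264 in stromal libraries. The Sca-1- luminal libraries were the ones with clearly more Notch1 than Notch2, and the stromal libraries had the lowest ratios. In the Sca-1+ luminal gate the ratio was lowest in replicate 1, which had the most fibroblast RNA, and close to the basal ratio in replicate 3, which had the least. Whether fibroblast RNA set that order was not tested. The ratio of the ligand sum to the receptor sum was 4.98 and 5.11 in the basal libraries and 0.269 to 1.37 in the other 8.

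**Figure D4:**
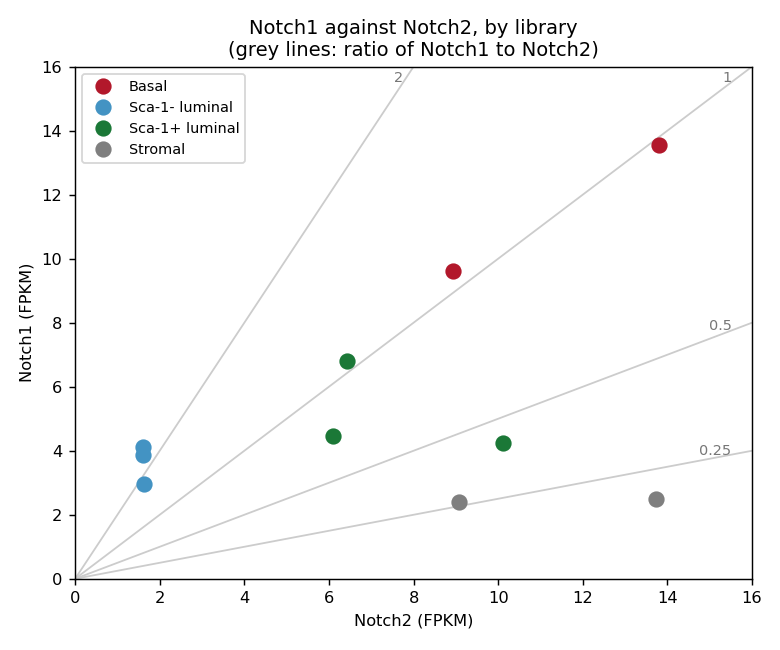
FPKM of Notch1 (y axis) against FPKM of Notch2 (x axis) in the 10 libraries, colored by gate, with grey lines for ratios of 2, 1, 0.5 and 0.25. The basal libraries lie near a ratio of 1 (0.983 and 1.08), the stromal libraries at 0.181 and 0.264, and the Sca-1- luminal libraries at 1.81 to 2.56.

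Hes1, a bHLH repressor and the classical Notch target (chromosome 16, 30064384 to 30067796, plus strand), was high in every library. It stood at 81.9 and 68.1 FPKM in the basal libraries, 53.7, 45.6 and 63.1 FPKM in the luminal Sca-1- libraries, 89.8, 80.8 and 135 FPKM in the luminal Sca-1+ libraries, and 83.4 and 62.6 FPKM in the stromal libraries. The Sca-1+ luminal libraries were above all Sca-1- luminal ones, and the other gates overlapped at least one of these. The mean of 102 ± 29.3 FPKM in Sca-1+ luminal cells exceeded the 54.1 ± 8.75 FPKM in Sca-1- luminal cells (SD, n = 3 each) by 0.88 (SE 0.252, limma adjusted p = 0.0249). The difference was 0.66 without replicate 3 (adjusted p = 0.0473) and 1.32 with replicate 3 as the sole library. The Sca-1+ luminal library with the least fibroblast RNA thus had the most Hes1. The call was lost without Sca-1- luminal replicate 1 (adjusted p = 0.0654) or 2 (adjusted p = 0.0753) and with median-of-ratios scaling, at 0.66 (adjusted p = 0.0617).

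None of the other 5 comparisons called Hes1. Basal cells, with the most ligand, had 75.0 ± 9.76 FPKM of Hes1 (SD, n = 2), a difference of 0.47 from Sca-1- luminal cells (95% interval -0.16 to 1.10, limma adjusted p = 0.201) and of -0.41 from Sca-1+ luminal cells (95% interval -1.04 to 0.22, adjusted p = 0.323). Hes1 made up 89.9% to 97.8% of the summed FPKM of the 4 targets. Immediate early genes respond to tissue dissociation. The summed level of 7 of these (Fos, Fosb, Jun, Junb, Egr1, Atf3 and Ier2) was 1998 to 4684 FPKM in basal, 2374 to 3904 FPKM in Sca-1- luminal, 2213 to 3704 FPKM in Sca-1+ luminal and 2746 to 2885 FPKM in stromal libraries. The ranges of the 4 gates overlapped, and in Sca-1+ luminal replicate 3, where Hes1 was highest, the sum was the lowest of its gate. Of the 7 genes, Junb alone was called between Sca-1+ and Sca-1- luminal cells, by 1.29 (limma adjusted p = 0.0427) with no overlap. Their part in the Hes1 level was not tested.

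Heyl, a bHLH repressor of the Hey family (chromosome 4, 123233556 to 123249875, plus strand), separated the libraries in another way. It stood at 0.368 and 0.277 FPKM in the basal libraries, 0.526, 0.253 and 0.440 FPKM in the luminal Sca-1- libraries, 4.83, 3.59 and 0.644 FPKM in the luminal Sca-1+ libraries, and 3.79 and 5.68 FPKM in the stromal libraries. The stromal libraries and Sca-1+ luminal replicates 1 and 2 were high, and the 6 other libraries were below 1 FPKM. Stromal cells (4.74 ± 1.34 FPKM, SD, n = 2) exceeded Sca-1- luminal cells by 2.01 (SE 0.46, limma adjusted p = 0.0052) and basal cells by 2.10 (adjusted p = 0.0156). The second call was lost without either basal or either stromal library (adjusted p = 0.0513 to 0.105).

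The Heyl difference between Sca-1+ and Sca-1- luminal cells was 1.33 (SE 0.412, limma adjusted p = 0.0326). It was 1.88 without replicate 3 (adjusted p = 0.000241) and 0.23 with replicate 3 as the sole library (adjusted p = 0.611), where the call ended. The call was also lost without either basal library, any Sca-1- luminal library or Sca-1+ luminal replicate 1 or 2 (adjusted p = 0.0501 to 0.106). Quantile normalization ended the call as well, at 1.01 (adjusted p = 0.0508). The fibroblast gene sums of these libraries fell in the same order as Heyl, and smooth muscle and pericyte genes (7 genes) summed to 255.4, 364.5 and 25.1 FPKM in replicates 1, 2 and 3. Endothelial genes (7 genes) summed to 32.4, 22.9 and 5.33 FPKM in the same libraries, with Pecam1 at 7.28, 6.14 and 1.46 FPKM. Their part in the Heyl level was not tested. Basal minus Sca-1+ luminal for Heyl was -1.42 (adjusted p = 0.0566), and it passed the threshold without replicate 3, at -1.97 (adjusted p = 0.000536). Stromal minus Sca-1+ luminal was 0.68 (adjusted p = 0.343), and 1.78 with replicate 3 as the sole library (adjusted p = 0.00221).

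Hey1, the relative of Heyl on chromosome 3 (8663359 to 8667256, minus strand), was low and did not share its pattern. It stood at 0.924 and 0.908 FPKM in the basal libraries, 3.59, 1.49 and 2.58 FPKM in the luminal Sca-1- libraries, 1.99, 1.82 and 0.808 FPKM in the luminal Sca-1+ libraries, and 1.40 and 0.731 FPKM in the stromal libraries. The Sca-1- luminal libraries were above all basal and stromal ones and overlapped the Sca-1+ luminal ones. No comparison called it. The nearest was basal minus Sca-1- luminal at -0.85 (SE 0.326, 95% interval -1.58 to -0.11, limma adjusted p = 0.0582), which passed the threshold in 4 alternatives, among them leaving out Sca-1- luminal replicate 2 (-1.08, adjusted p = 0.0227) or Sca-1+ luminal replicate 3 (-0.85, adjusted p = 0.0302). Stromal minus Sca-1- luminal was -0.76 (adjusted p = 0.0768) and passed it without the same libraries, at -0.99 (adjusted p = 0.0292) and -0.76 (adjusted p = 0.0437). After quantile normalization stromal minus Sca-1- luminal (-0.77, adjusted p = 0.0406) and Sca-1+ minus Sca-1- luminal (-0.76, adjusted p = 0.0397, against -0.47) also passed it.

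Nrarp encodes a small ankyrin-repeat protein that is induced by Notch and limits it. The gene lies on chromosome 2 at 25180758 to 25183339 (plus strand) and is overlapped by the antisense gene Gm38287. It stood at 1.29 and 0.767 FPKM in the basal libraries, 1.36, 0.389 and 1.31 FPKM in the luminal Sca-1- libraries, 1.52, 1.60 and 1.64 FPKM in the luminal Sca-1+ libraries, and 0.721 and 0.616 FPKM in the stromal libraries. The 3 Sca-1+ luminal libraries were nearly equal and above all others, the stromal libraries lay below both basal ones, and the Sca-1- luminal libraries spanned the levels of both. No comparison called Nrarp, and its largest difference was -0.63 for stromal minus Sca-1+ luminal (95% interval -1.24 to -0.03, limma adjusted p = 0.144). With groups of 2 and 3 libraries and an estimated 22 to 99 fragments per library, small differences in Nrarp could have been missed.

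Of 44 other genes of the pathway, 34 passed the filter. In the 6 comparisons 14.7% to 44.1% of them were called, against 13.5% to 52.7% of all genes. For Sca-1+ minus Sca-1- luminal, 13 of 34 were called (10 higher and 3 lower, median 0.43), for basal minus Sca-1- luminal 14 (7 and 7, median 0.34), and for basal minus Sca-1+ luminal 7 (1 and 6, median -0.20). For stromal minus basal 9 were called (4 and 5, median 0.12), for stromal minus Sca-1- luminal 15 (10 and 5, median 0.15), and for stromal minus Sca-1+ luminal 5 (1 and 4, median -0.11). Most of these counts moved with single libraries. Sca-1+ minus Sca-1- luminal gave 8 without Sca-1+ luminal replicate 2 and 6 with replicate 3 as its sole library, and its split was 7 higher and 7 lower after quantile normalization and 10 and 6 after median-of-ratios scaling. Basal minus Sca-1- luminal gave 8 when either basal library was left out, and its split was 10 and 4 after quantile normalization and 11 and 7 after median-of-ratios scaling. Basal minus Sca-1+ luminal gave 2 without basal replicate 1 and 0 without basal replicate 2, and its split was 4 and 3 after quantile normalization, 4 and 4 after median-of-ratios scaling, and 3 and 3 with replicate 3 as the sole library. Stromal minus basal gave 3 without basal replicate 1 or 2 or stromal replicate 2. Stromal minus Sca-1+ luminal gave 0 without stromal replicate 1, 1 without stromal replicate 2, 2 when a basal library, Sca-1- replicate 1, or Sca-1+ replicate 2 or 3 was left out, 3 without Sca-1- replicate 3, and 11 with replicate 3 as the sole library. Its split after median-of-ratios scaling was 1 and 2. Stromal minus Sca-1- luminal kept to 11 to 17. Among those not tested, the Delta-type ligand Dll4 was at most 0.964 FPKM and the target Hes5 at most 0.0762 FPKM in any library.

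Dner, a transmembrane protein with EGF repeats that has been described as a Notch ligand, had the largest differences of the ligand-like genes. Its level was 0.727 and 1.11 FPKM in basal, 1.35, 0.502 and 1.12 FPKM in Sca-1- luminal, 44.0, 30.0 and 6.25 FPKM in Sca-1+ luminal, and 39.3 and 70.0 FPKM in stromal libraries. It was 4.81 higher in stromal than in basal cells (limma adjusted p = 0.00208), 4.77 higher in stromal than in Sca-1- luminal cells (adjusted p = 0.000396) and -3.50 in basal minus Sca-1+ luminal cells (adjusted p = 0.00638). The last call was lost when either basal library was left out, and with Sca-1+ luminal replicate 3 as the sole library the difference was -1.93 (adjusted p = 0.0205). In Sca-1+ minus Sca-1- luminal cells the difference was 3.47 with all libraries, 4.25 without replicate 3 (adjusted p = 1.44e-05) and 1.89 with replicate 3 as the sole library (adjusted p = 0.0175). Dner thus followed the order of the fibroblast gene sums within the gate, and their part in it was not tested. Dlk2, a ligand-like protein without the domain by which Delta binds Notch, was at 14.8 and 6.16 FPKM in the basal libraries and at most 0.515 FPKM elsewhere, with all 3 Sca-1- luminal libraries listed at 0. Dlk2 passed the filter only through the basal libraries and was not tested when either of them was left out. Its calls therefore describe the gene and support nothing on their own. It was called higher in basal than in Sca-1- luminal cells (limma adjusted p = 6.64e-05). Its difference was 3.03 for basal minus Sca-1+ luminal (adjusted p = 0.000674) and -3.21 for stromal minus basal (adjusted p = 0.000711).

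Of 7 genes of the nuclear complex, 4 were called higher in basal cells (20.2% of all genes), 4 in Sca-1+ luminal cells (21.8% of all genes) and 5 in stromal cells (25.2% of all genes) when each was set against the Sca-1- luminal gate, with 1 called lower in stromal cells. Maml2, a Mastermind coactivator, was at 0.104 to 0.498 FPKM in Sca-1- luminal libraries and at 3.43 to 6.00 FPKM in all others, a difference of 2.04 for Sca-1+ minus Sca-1- luminal that held with replicate 3 alone at 2.15 (limma adjusted p = 0.00549). Rbpj, chosen for its role after its values were seen, was at 13.6 and 11.1 FPKM in basal, 2.70, 2.28 and 2.02 FPKM in Sca-1- luminal, 8.53, 5.82 and 3.62 FPKM in Sca-1+ luminal, and 13.1 and 9.15 FPKM in stromal libraries. All 3 Sca-1- luminal libraries were below all others. Basal minus Sca-1- luminal was 2.0 (adjusted p = 0.000889), stromal minus Sca-1- luminal 1.85 (adjusted p = 0.00126) and Sca-1+ minus Sca-1- luminal 1.01 (adjusted p = 0.0232), of which the last was 0.47 with replicate 3 as the sole library (adjusted p = 0.337).

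Of 8 genes of receptor cleavage, 4 were called lower and 0 higher in basal than in Sca-1- luminal cells by limma. Among all genes 46.2% were called in that comparison, 3243 of 12461 of them lower, so the share called was near that of all genes. In this comparison 6665 of the 12461 genes had an unadjusted p under 0.05. The list had the same 4 lower and 2 higher at that threshold, the ADAM proteases Adam10 (0.55, adjusted p = 0.0762) and Adam17 (0.86, adjusted p = 0.0631). The 2 with the largest differences, chosen after their values were seen, were the gamma-secretase subunits Psen2 and Psenen. Psen2 was at 1.81 and 1.55 FPKM in basal and 11.1 to 18.1 FPKM in Sca-1- luminal libraries, a difference of -2.49 (adjusted p = 6.64e-05), and Psenen at 7.93 and 5.58 FPKM against 35.4 to 42.6 FPKM, a difference of -2.35 (adjusted p = 0.000105). Numbl, a relative of the Notch inhibitor Numb, was at 20.0 and 27.5 FPKM in stromal and 0.347 to 1.12 FPKM in Sca-1- luminal libraries, a difference of 3.87 (adjusted p = 0.00178), while Sca-1+ luminal replicates 1, 2 and 3 had 12.4, 10.8 and 0.884 FPKM. Within that gate Numbl followed the order of the fibroblast gene sums, whose part in it was not tested.

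Ccnd1 and Hes6, listed here as other targets, had different patterns across the gates. Ccnd1, the cyclin D1 gene, which has many inputs besides Notch, was at 54.8 and 116 FPKM in basal, 6.82 to 10.3 FPKM in Sca-1- luminal, 20.8, 50.2 and 63.6 FPKM in Sca-1+ luminal, and 7.19 and 11.5 FPKM in stromal libraries. Basal minus Sca-1- luminal was 3.10 (limma adjusted p = 0.000728), Sca-1+ minus Sca-1- luminal 2.14, stromal minus basal -3.0 (adjusted p = 0.00393) and stromal minus Sca-1+ luminal -2.04 (adjusted p = 0.0207). The last call was lost without either stromal library or Sca-1+ luminal replicate 2, and was -2.68 with replicate 3 as the sole library (adjusted p = 0.00337). With replicate 3 alone the Sca-1+ minus Sca-1- difference was 2.78 (adjusted p = 0.00566), so the library with the least fibroblast RNA had the most Ccnd1 of its gate. Hes6, a Hes family protein that acts against Hes1, had 17.9, 9.50 and 23.2 FPKM in Sca-1- luminal, 8.32, 6.43 and 6.73 FPKM in Sca-1+ luminal and 0.942 to 1.54 FPKM in basal and stromal libraries. Basal minus Sca-1- luminal was -2.98 (adjusted p = 0.000144), basal minus Sca-1+ luminal -1.92 (adjusted p = 0.00514) and stromal minus Sca-1+ luminal -1.79 (adjusted p = 0.00831). With Sca-1+ luminal replicate 3 as the sole library the last 2 were -1.85 (adjusted p = 0.0342) and -1.72 (adjusted p = 0.0264). The call against basal cells was lost without basal replicate 2, and the call against stromal cells without either stromal library.

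**Figure D5:**
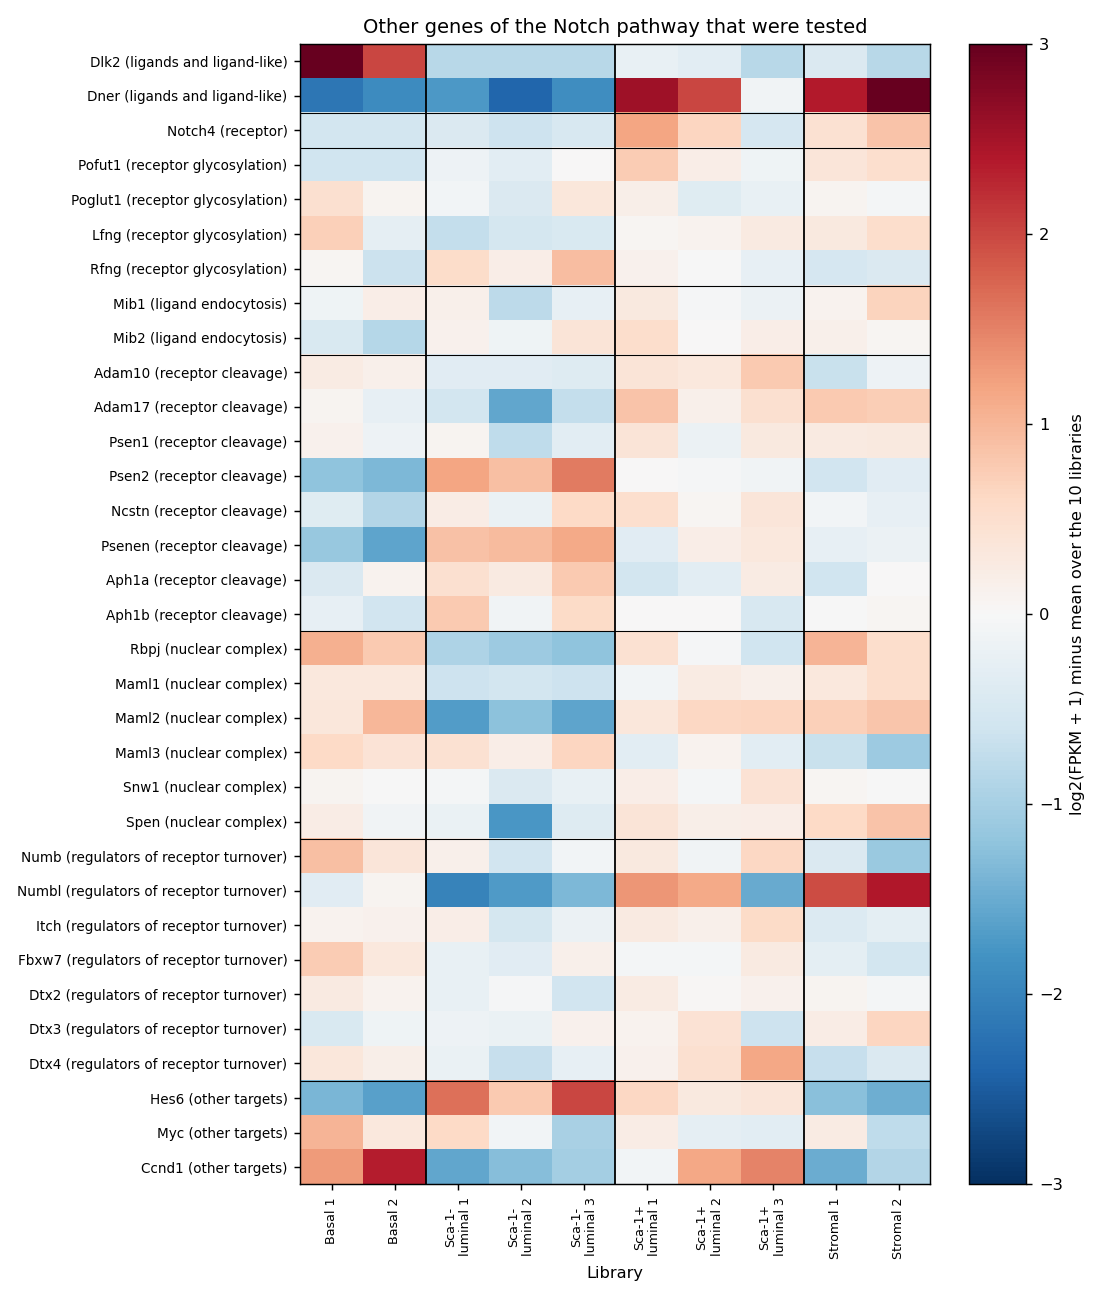
log2(FPKM + 1) minus its mean over the 10 libraries (color scale, limited to -3 to 3) for 33 of the 34 other pathway genes that were tested (rows, ordered by role) in each library (columns). Dlk2 is high in the basal libraries, Dner and Numbl in the stromal libraries and Sca-1+ luminal replicates 1 and 2, and Hes6 in the Sca-1- luminal libraries.

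Likeness between genes was measured as Pearson's r of log2(FPKM + 1) over the 10 libraries, as a description, since the libraries fall into 4 gates that every gene shares. Among the members, Dll1 and Jag2 were most alike (0.97), followed by Jag2 and Notch1 (0.90) and Dll1 and Jag1 (0.86), and Jag1 and Notch2 stood at 0.83. Hes1 had r of 0.06 to 0.20 with the 3 ligands and 0.59 with Notch2. Of all other tested genes, those closest to Dll1 were Epgn, an EGF family growth factor (0.989), and Rgs12 (0.986), and those closest to Jag2 were 4631405K08Rik (0.989) and Edaradd (0.988). The nearest to Jag1 were Cacna2d1 (0.988) and Spock1 (0.986), to Notch1 Tgfa, another EGF family growth factor (0.979), and Plxnb1 (0.978), and to Notch2 Lbr (0.989) and Simc1 (0.987). Heyl was closest to Tmem204 (0.997) and Edn3 (0.995). For Hes1 the nearest genes were 9130019O22Rik (0.947) and Prr16 (0.946), for Hey1 Chuk and Rab33b (0.924 each), and for Nrarp Rnf40 (0.966) and Kdm6a (0.933).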

How the data were processed

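RNA from 10 libraries of 4 sorted prostate cell populations was sequenced on a HiSeq after NuGEN Ovation amplification with random and poly(dT) priming, per the labels' protocols. Per the submitters' processing notes, bcl2fastq 1.8.3, TopHat and Cufflinks were used with genome build mm10; the sources used here give no version for TopHat and Cufflinks and do not state strandedness. Each file is a Cufflinks table of 63241 UCSC transcripts. FPKM, with its confidence bounds, was computed by the authors and deposited per transcript. Coverage, the mean depth per base, is also in the deposited files and was not tested.

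Transcripts were named by mm10 locus from GENCODE release M21 and RefSeq GRCm38.p6: 53657 (84.8%) received a symbol. Transcripts under 300 nt (8006) were left out, FPKM was summed per gene (24514 genes), and 7 genes with a failed estimate were dropped. None of the 10 members was listed at 0 in any library. A single transcript carried all FPKM of each member in each library, except Notch2 in Sca-1- luminal replicate 3 (56.7%). Depth was estimated from FPKM steps, with 92.8% to 94.6% of low values within 0.05 of a whole fragment. Steps hold for isolated transcripts only, so no count model was run. Groups come from the gate in each label, and replicates are numbered in listed order. limma 3.58.1 (R 4.3.3; lmFit, contrasts.fit, eBayes with trend) was fitted to log2(FPKM + 1) with a mean per gate, 6 residual degrees of freedom and 6 pairwise contrasts, two-sided, over 12461 genes. A gene's spread is taken to be equal in all gates. The fit was tried on simulated data with known changes. These were drawn with the same spread in all gates, so they do not test that assumption. Tables and figures used Python 3.11.15, pandas 2.3.3 and matplotlib 3.10.9.

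All 10 members are described. Of 44 other pathway genes, up to 3 called genes with the largest absolute difference are named per contrast (1 gene of the list is not reported here), and for each tested member the 2 genes with the highest Pearson r. Members, lists and tests were chosen with earlier results of these data known. Alternatives, 18 per contrast, were another pseudocount, no filter, quantile and median-of-ratios scaling, a fit on the compared gates only, short transcripts included, the top transcript per gene, each library left out, and Sca-1+ luminal replicate 3 as the sole library of its gate.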

Additional observations from a re-analysis of the deposited data

How the results depend on the processing

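Of 54 differences (9 tested genes in 6 comparisons), 21 were called, and 15 of these were called in each of the 18 alternatives. None of the 21 changed sign in any alternative. The 6 that lost a call in some alternative are Jag1, Heyl and Hes1 for Sca-1+ minus Sca-1- luminal, Notch1 for basal minus Sca-1+ luminal, and Jag1 and Heyl for stromal minus basal. For Sca-1+ minus Sca-1- luminal, 4 genes were called, and 2 (Hes1 and Notch2) with no filter, with the compared gates only and with Sca-1+ luminal replicate 3 as the sole library. Leaving out a library gave 1 (without Sca-1- luminal replicate 1 or 2) to 5 (without Sca-1+ luminal replicate 3), and 2 when the library left out was basal, replicate 3 of the Sca-1- gate, or replicate 1 or 2 of the Sca-1+ gate. With quantile normalization Jag1 and Heyl were not called in this comparison, and Hey1 was called lower in Sca-1+ luminal cells (-0.76). For stromal minus basal, 5 were called, and 3 to 5 without a library, with 3 when either basal or either stromal library was left out. For stromal minus Sca-1+ luminal, 0 were called, 1 (Jag2) with a pseudocount of 0.1 FPKM, 3 (Heyl, Jag1 and Notch1) with replicate 3 as the sole library, and 0 to 2 without a library, with 2 (Jag1 and Notch1) when Sca-1+ luminal replicate 1 was left out. The following differences were not called and changed sign. With quantile normalization they were Jag2 in Sca-1+ minus Sca-1- luminal (-0.12), Heyl in basal minus Sca-1- luminal (0.01), Hey1 (0.15) and Nrarp (0.17) in basal minus Sca-1+ luminal, Notch2 (-0.08) and Hey1 (-0.16) in stromal minus basal, and Dll1 in stromal minus Sca-1+ luminal (0.20). With median-of-ratios scaling they were Notch2 in stromal minus basal (-0.04) and Dll1 in stromal minus Sca-1+ luminal (0.12). With replicate 3 as the sole library they were Jag2 in Sca-1+ minus Sca-1- luminal (-0.13), Hey1 in basal minus Sca-1+ luminal (0.08), and Dll1 (0.41) and Hey1 (0.17) in stromal minus Sca-1+ luminal. Leaving out a library gave ranges that crossed 0 for Nrarp in basal minus Sca-1- luminal (-0.21 to 0.22), for Notch2 (-0.28 to 0.29), Hes1 (-0.25 to 0.16) and Hey1 (-0.15 to 0.33) in stromal minus basal, and for Dll1 in stromal minus Sca-1+ luminal (-0.30 to 0.17). The cause of these changes was not tested. Quantile normalization shifted the median difference of all genes by -0.26 for Sca-1+ minus Sca-1- luminal, 0.37 for basal minus Sca-1+ luminal, -0.12 for stromal minus basal and 0.22 for stromal minus Sca-1+ luminal, and median-of-ratios scaling by -0.17, 0.26 and 0.23 for the comparisons with Sca-1+ luminal cells in that order. Among the 34 other pathway genes, a fit on the compared gates only gave 8 calls against 13 for Sca-1+ minus Sca-1- luminal and 1 against 5 for stromal minus Sca-1+ luminal, and no filter (44 genes) gave 9 against 14 for basal minus Sca-1- luminal. No paired analysis was run, because the labels carry no replicate numbers and no batch. Any pairing of libraries across gates was thus left out of the tests. Groups of 2 and 3 libraries, and few fragments for Notch3, Nrarp, Hey1 and stromal Jag2, limit what could be detected.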
